A study of Mus musculus with 48 samples.

Results

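The 38 genes described here encode the exocytosis machinery of islet endocrine cells. They were taken by symbol from a list of SNAREs, Munc priming factors, synaptotagmins, RABs, RAB effectors and granule membrane proteins. All 38 were found among the 42713 genes of the deposited count tables. RNA was sequenced in β and α cells sorted by flow cytometry from islets of mice that had received doxycycline and of control mice, at zeitgeber times (ZT, hours after lights on) 0, 4, 8, 12, 16 and 20. The doxycycline mice drank water with 300 mg doxycycline and 2% sucrose, and the control mice drank 2% sucrose alone. Every mouse was a male of 6 to 8 weeks that carried TET-DTA, Insulin-rtTA, RIP-Cherry, ProGcg-Venus and PER2::Luc, so the controls had the toxin transgene too. Insulin-rtTA switches on the diphtheria toxin gene in β cells when doxycycline is given, so the β cells sorted after doxycycline were those that remained. No group received doxycycline without the toxin gene, so the drug and the ablation cannot be told apart. Food was restricted to the night for 10 days before sampling, and part of the mice were kept on an inverted 12 h light cycle for 2 weeks. Each of the 4 conditions (doxycycline β, control β, doxycycline α and control α) had 12 libraries, 2 at each time. The labels call these duplicates and do not say that they came from separate animals, so p-values measure the spread between these libraries, which may in part be technical.

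Regulated exocytosis releases insulin, glucagon and other granule contents when calcium rises. RAB GTPases and their effectors bring granules to the plasma membrane, Munc and CAPS proteins prime them, and the vesicle SNARE zips up with syntaxin and SNAP partners in the target membrane. Synaptotagmins and related C2-domain proteins couple that fusion to calcium, and complexins bind the assembled SNAREs. β and α cells use overlapping sets of these proteins, and RAB27A, granuphilin (Sytl4) and Noc2 (Rph3al) are known for their part in insulin granule docking and release.

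Libraries held 16.1 to 69.9 M (mega) counts. They came from 2 sequencing runs, told apart by the run date in the sample titles and deposited as separate tables: an earlier one (20 libraries, replicate 1 of ZT4 to ZT20, 16.1 to 28.6 M) and a later one (28 libraries, replicate 2 of every group and both of ZT0, 37.4 to 69.9 M). The sorted cells carried the markers of their labels: 10 β markers summed to 216342 to 392052 CPM (counts scaled to the library's total) in doxycycline β cells and 243097 to 435854 CPM in control β cells, and 8 α markers summed to 230391 to 463505 CPM in doxycycline α cells and 251452 to 397273 CPM in control α cells. δ, PP and ε cell markers summed to 22091 CPM or more in every α library, so the α sorts also held RNA of those genes. In β cells, the macrophage and dendritic cell markers summed to 130.3 to 1660 CPM after doxycycline (median 747) and to 54.1 to 389 CPM in controls (median 183). Acinar markers exceeded 1000 CPM in 5 libraries, all from doxycycline mice: α replicate 1 and β replicate 1 at ZT0, α replicate 2 at ZT4, and α replicate 2 and β replicate 2 at ZT8. In sorted bulk samples, fewer cells of a type and less RNA per cell cannot be told apart.

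Within each condition, levels per transcript length (deposited RPKM, reads scaled to transcript length and library total) gave nearly the same leading members. In doxycycline β cells Syt13, a synaptotagmin that does not bind calcium, was highest at 399.5 ± 67.9 RPKM, with Ptprn next at 283 ± 75.9 RPKM, followed by Rab3d at 113 ± 13.6 RPKM. In controls Syt13 was highest at 372 ± 46.4 RPKM in control β cells and 186 ± 35.2 RPKM in control α cells (SD, n = 12 each). Ptprn and Ptprn2, the granule membrane proteins IA-2 and phogrin, and complexin 2 (Cplx2) came next. Ptprn averaged 153 ± 29.5 RPKM in control β cells and 127 ± 20.8 RPKM in control α cells. Ptprn2 averaged 115 ± 19.1 RPKM in control β cells and 109 ± 11.0 RPKM in control α cells. Cplx2 averaged 103 ± 24.6 RPKM in control β cells and 127 ± 18.0 RPKM in control α cells. Ptprn2 and Cplx2 in control β cells, and Ptprn and Cplx2 in control α cells, lay within 1 SD of each other. At the low end of the CPM scale, complexin 1 (Cplx1) had a median of 0.597 CPM in doxycycline β cells, 0.418 CPM in control β cells, 0.0656 CPM in doxycycline α cells and 0.106 CPM in control α cells, and it was too low to be tested between the cell types.

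β and α cells of control mice differed at most of these genes. Of the 37 members that passed the filter on low counts, 33 differed at an adjusted p under 0.05, against 71.4% of all 14945 genes tested (edgeR's quasi-likelihood F test, Benjamini-Hochberg adjustment over all genes). In β cells 19 were higher (34.2% of all genes were) and 14 lower (37.3% of all genes were). The median log2 fold change of β over α cells was 0.23 over the tested members and -0.03 over all genes, and the median absolute change was 0.58 and 0.43. The CPM ranges of the 12 β and 12 α libraries did not overlap for 13 members (7 higher and 6 lower in β cells), against 23.1% of all genes tested (11.9% higher and 11.2% lower). Sytl2 and Otof are within these counts, but they passed the filter only through α cells, so no fitted change of theirs between the cell types is given. Among the others, the largest differences were that of Sytl4 towards β cells and that of Rab3c towards α cells.

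**Figure D1:**
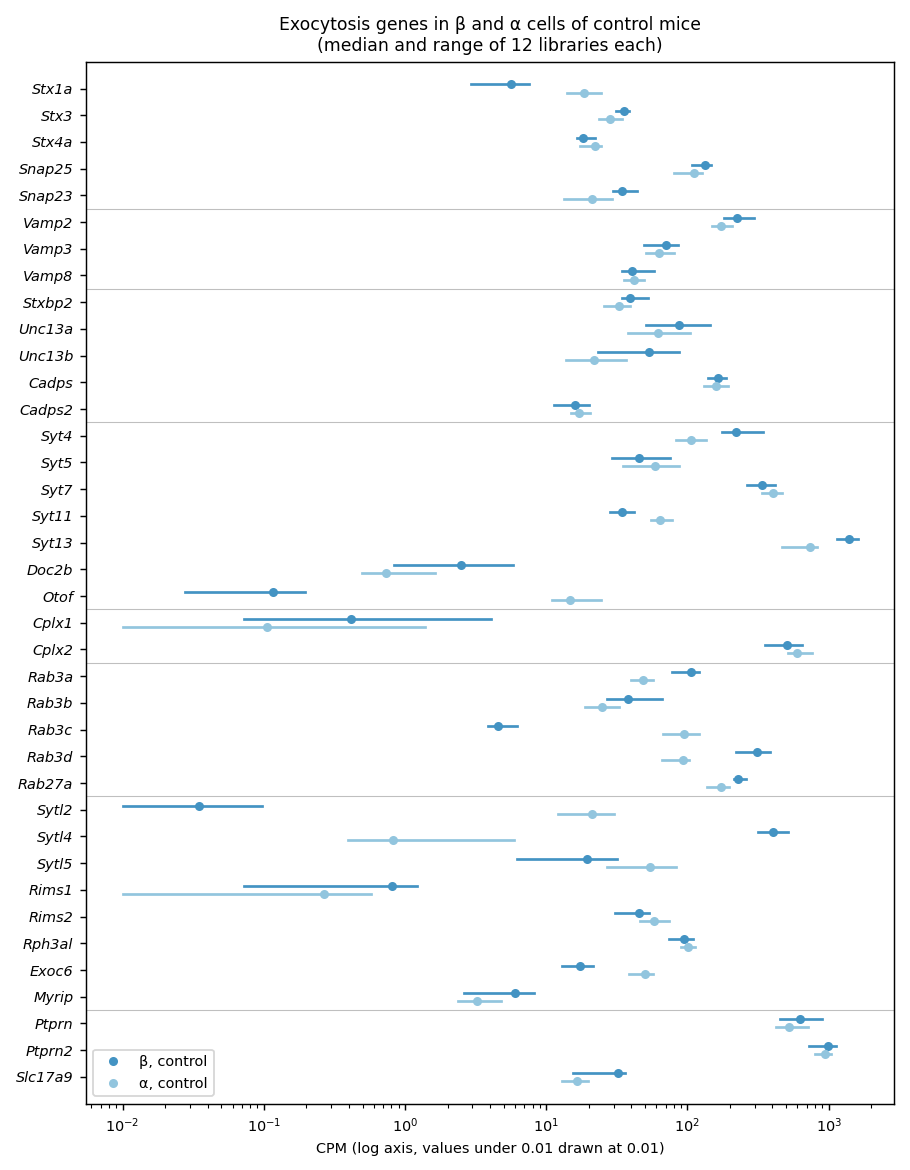
Median (dot) and range (line) of CPM over 12 libraries of control β cells and 12 of control α cells for the 38 genes, on a log axis, grouped by role from membrane SNAREs at the top to granule membrane proteins at the bottom. Sytl4 lies between 314 and 517 CPM in control β cells and between 0.397 and 5.86 CPM in control α cells, and Rab3c shows the opposite order.

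Among RAB27 effectors of the synaptotagmin-like family, Sytl4 (granuphilin) was the member most biased to β cells. It had 314 to 517 CPM in control β cells (median 401) and 0.397 to 5.86 CPM in control α cells (median 0.827), 8.35 ± 0.31 higher on the log2 scale (± SE, as for every log2 change here; adjusted p = 6.97e-16). The α library with the highest Sytl4 (control ZT20 replicate 2) also had the highest sum of β markers among control α libraries, 4794 CPM. Sytl2 showed the reverse, with 0 to 0.0962 CPM in control β cells (0 to 6 counts per library) and 12.0 to 30.1 CPM in control α cells. Sytl5 was also lower in β cells, with medians of 19.5 CPM in control β cells and 54.3 CPM in control α cells (-1.61 ± 0.11, adjusted p = 1.08e-11), although its ranges overlapped.

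RAB3 proteins are GTPases on secretory granules, and their 4 genes split between the cell types. Rab3d had 220.3 to 383 CPM in control β cells (median 314) and 66.4 to 102 CPM in control α cells (median 92.9), 3.36-fold higher in β cells (log2 1.75 ± 0.08, adjusted p = 1.06e-14). Rab3a had 77.6 to 120.5 CPM in control β cells and 40.0 to 57.2 CPM in control α cells (1.10 ± 0.06, adjusted p = 4.6e-13). Rab3b had medians of 37.7 CPM in control β cells and 25.0 CPM in control α cells (0.61 ± 0.11, adjusted p = 4.18e-05). Rab3c stood against the other 3, with 3.85 to 6.23 CPM in control β cells and 66.7 to 120.2 CPM in control α cells (-4.29 ± 0.08, adjusted p = 9.17e-21). Rab27a, the GTPase that Sytl4 and Myrip bind, differed less, with 215 to 261 CPM in control β cells and 138 to 199 CPM in control α cells (0.41 ± 0.05, adjusted p = 6.98e-08).

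The calcium sensors and SNAREs gave smaller or mixed differences, apart from otoferlin. Otof, known as the calcium sensor of inner hair cells, had 0.0278 to 0.195 CPM in control β cells (2 to 12 counts per library) and 10.9 to 24.4 CPM in control α cells. Syt4 had 174 to 342 CPM in control β cells and 83.6 to 135 CPM in control α cells (1.14 ± 0.07, adjusted p = 4.05e-12), and Syt13 was 2.00-fold higher in β cells (adjusted p = 4.35e-12). Syt4 shares part of its locus with the antisense gene Gm26658 (median 415 counts per library against 6185 for Syt4). The kit did not mark strand, so reads of the shared part cannot be told apart. Unc13a likewise overlaps the antisense gene Colgalt1 (medians of 2636 and 2162 counts per library). Some other members, Rab3a and Vamp3 among them, overlap genes of lower count (medians of 320 and 321). Syntaxin 1A (Stx1a), the target membrane SNARE best known from synapses, was lower in β cells, with 2.93 to 7.58 CPM in control β cells and 14.1 to 24.5 CPM in control α cells (-1.84 ± 0.10, adjusted p = 3.24e-13). Syt11 was also lower in β cells, with 28.1 to 41.8 CPM in control β cells and 55.0 to 78.1 CPM in control α cells (-0.94 ± 0.06, adjusted p = 6.28e-12). Rims2, an active zone effector of RAB3, had medians of 45.3 CPM in control β cells and 57.8 CPM in control α cells (-0.45 ± 0.08), with overlapping ranges. The exocyst subunit Exoc6 had 13.0 to 21.3 CPM in control β cells and 38.4 to 57.5 CPM in control α cells (-1.54 ± 0.06, adjusted p = 2.88e-16).

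A priming factor and genes of low level also differed. Unc13b (Munc13-2) had medians of 53.9 CPM in control β cells and 21.9 CPM in control α cells (1.31 ± 0.15, adjusted p = 9.09e-08), with overlapping ranges. Doc2b, a calcium-binding C2 protein of β-cell exocytosis, was low in both, with medians of 2.49 CPM in control β cells and 0.728 CPM in control α cells (1.60 ± 0.21, adjusted p = 5.4e-07). Rims1 was lower still, with medians of 0.814 CPM in control β cells and 0.266 CPM in control α cells (1.24 ± 0.46, adjusted p = 0.0194). The 4 tested members past no threshold were Vamp3 (0.07 ± 0.07), Vamp8 (-0.02 ± 0.05), Cadps (0.01 ± 0.04) and Ptprn2 (0.05 ± 0.06). Cadps2 was -0.20 ± 0.08 (adjusted p = 0.0264), and this call was lost when any of 10 single libraries was left out, with the highest adjusted p, 0.0738, without control β replicate 1 of ZT8. In doxycycline mice, 30 of 37 tested members differed between β and α cells (16 higher and 14 lower in β cells), against 71.2% of 15370 genes (35.6% higher and 35.7% lower), again with Sytl2 and Otof passing the filter only through α cells. With the replicate number as a block within the doxycycline mice, 32 passed, against 73.7% of all genes. Unc13a (0.43, adjusted p = 0.00213) and Vamp8 (0.15, adjusted p = 0.0267) were called in addition. The ranges did not overlap for 14 members (7 higher and 7 lower), against 20.6% of all genes (11.2% higher and 9.39% lower). Stxbp2 (Munc18-2) was 0.25 ± 0.10 higher (adjusted p = 0.0263), a call lost without any of 7 libraries, with the highest adjusted p, 0.119, without doxycycline β replicate 2 of ZT0. Doc2b was 0.58 ± 0.21 (adjusted p = 0.0181), and 0.48 (adjusted p = 0.0566) without doxycycline β replicate 2 of ZT0.

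The promoter windows of 2 members at opposite ends of the β-to-α order, and of 2 members whose RNA fell in β cells after doxycycline, are shown as context for those results. RefSeq windows (GRCm38.p6) run from 250 bases before to 50 bases after a transcript start, and 26 of the 38 members had at least 1 of them (29 windows of 300 bases). Capitals mark a match to a searched motif, in the direction shown. Sytl4 (chrX:133981763-133982062, minus strand) and Rab3c (chr13:110280157-110280456, minus strand) hold none of the motifs searched. Stx1a (chr5:135023232-135023531, plus strand) holds a CRE core and Rph3al (chr11:75925842-75926141, minus strand) a REV-ERB/ROR half-site. The Rph3al and Rab3c windows lie inside the gene spans listed with the counts, so their transcript starts are internal to those spans.
Sytl4: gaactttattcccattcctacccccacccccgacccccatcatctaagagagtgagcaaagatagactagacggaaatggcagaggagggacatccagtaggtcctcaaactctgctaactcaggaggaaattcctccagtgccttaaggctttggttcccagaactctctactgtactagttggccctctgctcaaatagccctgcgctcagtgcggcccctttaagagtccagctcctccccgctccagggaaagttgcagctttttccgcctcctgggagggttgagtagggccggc
Rab3c: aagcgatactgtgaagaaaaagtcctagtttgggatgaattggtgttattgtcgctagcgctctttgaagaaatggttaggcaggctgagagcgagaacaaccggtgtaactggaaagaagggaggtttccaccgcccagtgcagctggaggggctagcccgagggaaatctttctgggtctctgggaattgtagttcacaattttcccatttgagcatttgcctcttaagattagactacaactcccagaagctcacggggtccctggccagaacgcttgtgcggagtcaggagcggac
Stx1a: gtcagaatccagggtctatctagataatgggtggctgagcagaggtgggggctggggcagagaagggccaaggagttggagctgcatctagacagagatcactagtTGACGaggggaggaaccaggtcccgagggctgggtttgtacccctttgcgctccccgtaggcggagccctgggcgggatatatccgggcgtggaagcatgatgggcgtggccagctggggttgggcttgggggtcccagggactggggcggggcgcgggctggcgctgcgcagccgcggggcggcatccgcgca
Rph3al: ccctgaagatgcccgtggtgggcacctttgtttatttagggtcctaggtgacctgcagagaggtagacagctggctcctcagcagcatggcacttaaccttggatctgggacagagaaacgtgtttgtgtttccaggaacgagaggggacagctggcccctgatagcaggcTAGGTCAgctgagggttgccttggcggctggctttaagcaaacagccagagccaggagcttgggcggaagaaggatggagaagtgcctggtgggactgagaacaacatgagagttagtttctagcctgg

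On either strand, the E-box CACGTG, which the clock activators bind, was found in 4 of the 29 member windows (Cadps2, Rab27a, Stxbp2 and Unc13b) and in 7.15% of all 32851 windows. The CRE core TGACG was found in 10 of 29 and in 20.8% of all windows. The REV-ERB/ROR half-site TAGGTCA was found in 1 of 29, that of Rph3al, and in 2.61% of all windows. None of the 3 motifs contains another, though neighbouring matches can share bases. A match describes these letters only. The Sytl4 window had 7 CpG and the Rab3c window 11, against a median of 7 over all windows.

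Doxycycline changed about as large a share of these genes in β cells as of all genes, with members moving both ways. Of 36 tested members, 19 passed the threshold (52.8%), against 46.9% of 15188 genes. After doxycycline 7 members rose (19.4%, against 23.8% of all genes) and 12 fell (33.3%, against 23.1%). Otof and Sytl2 were near 0 in β cells and were not tested. The median log2 fold change of doxycycline over control was 0.04 over the tested members and -0.01 over all genes, and the median absolute change was 0.23 in both. Only Slc17a9 (higher) and Stx3 (lower) had CPM ranges that did not overlap between doxycycline and control β cells, against 2.48% of all genes tested (1.36% higher and 1.12% lower). The granule membrane genes Slc17a9 and Ptprn, the RAB Rab3d and the synaptotagmin Syt5 rose by more than 0.5 on the log2 scale. Rims1 is within the 7 that rose, but it did not pass the filter in control β cells alone. No fitted change of Rims1 is therefore given. The largest falls were in the RAB effectors Sytl4 and Rph3al, the syntaxins Stx1a and Stx3, Doc2b and Rab3b.

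**Figure D2:**
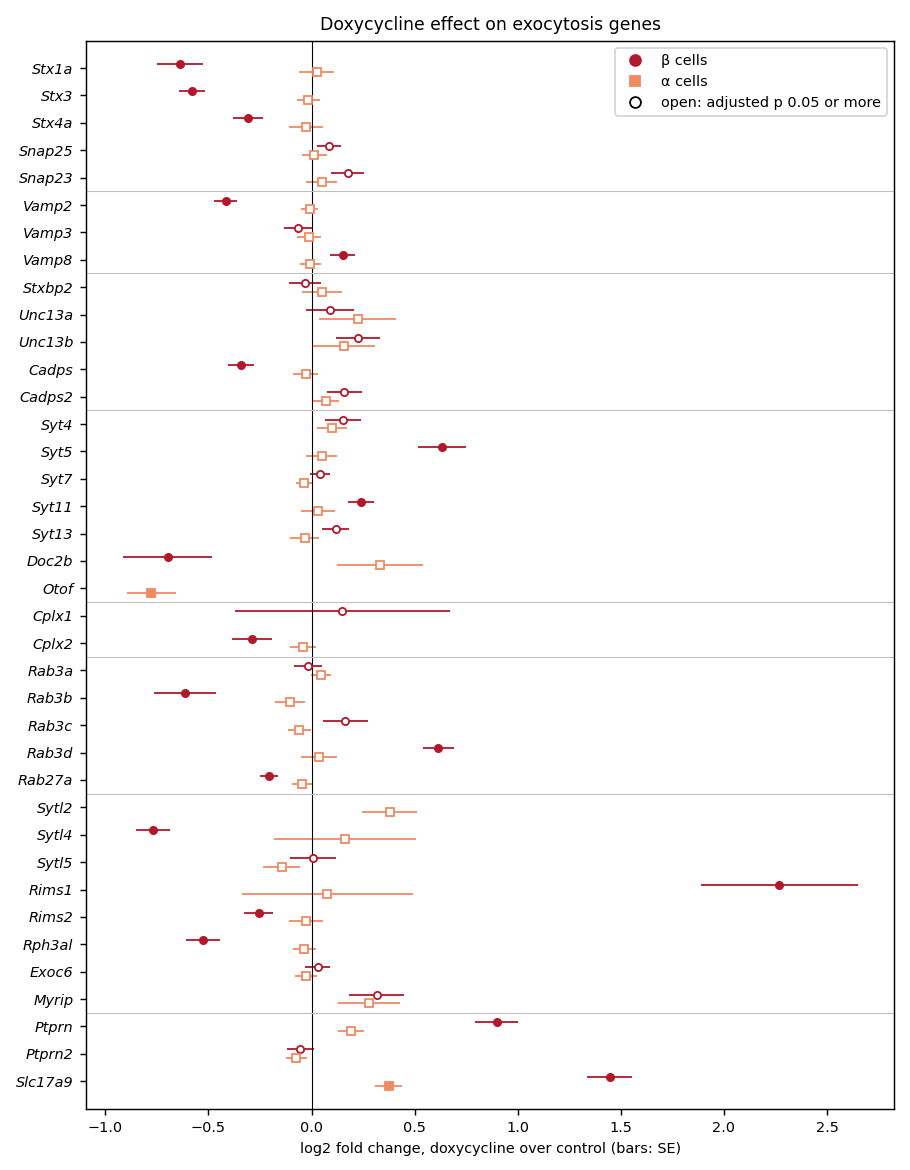
Log2 fold change of doxycycline over control with its SE for the tested members in β cells (dark circles) and α cells (light squares), grouped by role. Filled symbols have an adjusted p under 0.05: 19 in β cells, from Sytl4 (-0.77) to Rims1, and 2 in α cells (Otof and Slc17a9). Rims1 did not pass the filter in control β cells alone.

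Of the 3 granule membrane genes 2 rose and none fell. Slc17a9, the vesicular nucleotide transporter that loads ATP into granules, had 44.6 to 125 CPM in doxycycline β cells (median 75.5) and 15.4 to 36.1 CPM in control β cells (median 32.1). It rose 2.72-fold (log2 1.45 ± 0.11, adjusted p = 5.75e-09) and was higher at all 6 times. Ptprn had 849.8 to 1886 CPM in doxycycline β cells (median 1096) and 456 to 904 CPM in control β cells (median 631), an overlap at the edges, and rose by 0.90 ± 0.10 (adjusted p = 1.14e-06). Its relative Ptprn2 had medians of 960.2 CPM after doxycycline and 994 CPM in controls (-0.05 ± 0.07, adjusted p = 0.53).

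Of the 5 RAB genes 1 rose and 2 fell. Rab3d had 379 to 638 CPM in doxycycline β cells (median 477) and 220.3 to 383 CPM in control β cells (median 314), with ranges that touched by 1 library on each side, and rose by 0.61 ± 0.07 (adjusted p = 1.58e-06). Rab3b had 13.8 to 43.4 CPM in doxycycline β cells (median 25.0) and 26.8 to 65.8 CPM in control β cells (median 37.7), and fell by 0.61 on the log2 scale (SE 0.15, adjusted p = 0.00197). Control α cells had the same median, 25.0 CPM. Rab27a had 183 to 217 CPM in doxycycline β cells and 215 to 261 CPM in control β cells (-0.20 ± 0.04, adjusted p = 0.000638). Rab3a had medians of 104 CPM after doxycycline and 106 CPM in controls (-0.02 ± 0.07, adjusted p = 0.862), and Rab3c had 5.09 CPM after doxycycline and 4.55 CPM in controls (0.16 ± 0.11, adjusted p = 0.227).

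Of 7 tested RAB effectors and tethers 1 rose and 3 fell. Sytl4, the β-biased granuphilin, had 176 to 365 CPM in doxycycline β cells (median 244) and 314 to 517 CPM in control β cells (median 401), a fall of 0.77 on the log2 scale (SE 0.08, adjusted p = 4.33e-07). It was lower at all 6 times, and its lowest doxycycline library still lay far above the α libraries. Rph3al (Noc2), an effector of RAB3 and RAB27, had 34.4 to 84.2 CPM in doxycycline β cells (median 67.5) and 74.4 to 109.9 CPM in control β cells (median 94.2), a log2 change of -0.53 ± 0.08 (adjusted p = 2.62e-05). Rims2 had medians of 36.4 CPM in doxycycline β cells and 45.3 CPM in control β cells (-0.26 ± 0.07, adjusted p = 0.00551). Its paralogue Rims1 was higher instead, with 0.534 to 4.83 CPM in doxycycline β cells (median 3.23) and 0.0719 to 1.21 CPM in control β cells (median 0.814). In control β cells alone Rims1 did not pass the filter on low counts, so no fitted change is given. Rims1 rested on few counts, a median of 93 per library after doxycycline and 27 in controls, and its lowest doxycycline library was β replicate 1 of ZT0, one of those with high acinar markers.

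Of 5 membrane SNAREs 3 fell and none rose, and of 3 vesicle SNAREs 1 rose and 1 fell. Stx3, a plasma membrane syntaxin, had 17.5 to 27.9 CPM in doxycycline β cells (median 24.0) and 31.1 to 38.4 CPM in control β cells (median 35.8), with no overlap (-0.58 ± 0.06, adjusted p = 3.87e-07). Stx1a had 2.36 to 4.79 CPM in doxycycline β cells (median 3.46) and 2.93 to 7.58 CPM in control β cells (median 5.59), with overlap (-0.64 ± 0.11, adjusted p = 0.000106). Stx4a had 10.8 to 18.6 CPM in doxycycline β cells and 16.4 to 22.1 CPM in control β cells (-0.31 ± 0.07, adjusted p = 0.00186). Vamp2, the main vesicle SNARE of insulin granules, had 124 to 197 CPM in doxycycline β cells (median 174) and 182 to 297 CPM in control β cells (median 225), a log2 change of -0.42 ± 0.06 (adjusted p = 4.77e-06). The target SNAREs Snap25 and Snap23 passed no threshold (0.08 ± 0.06, adjusted p = 0.26, and 0.18 ± 0.08, adjusted p = 0.0752). Vamp8, a vesicle SNARE also found on β-cell granules, had medians of 46.6 CPM after doxycycline and 40.4 CPM in controls (0.15 ± 0.06, adjusted p = 0.0445). The Vamp8 call was lost without any of 13 libraries, with log2 changes of 0.12 to 0.16 and the highest adjusted p, 0.0953, without doxycycline β replicate 2 of ZT12.

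**Figure D3:**
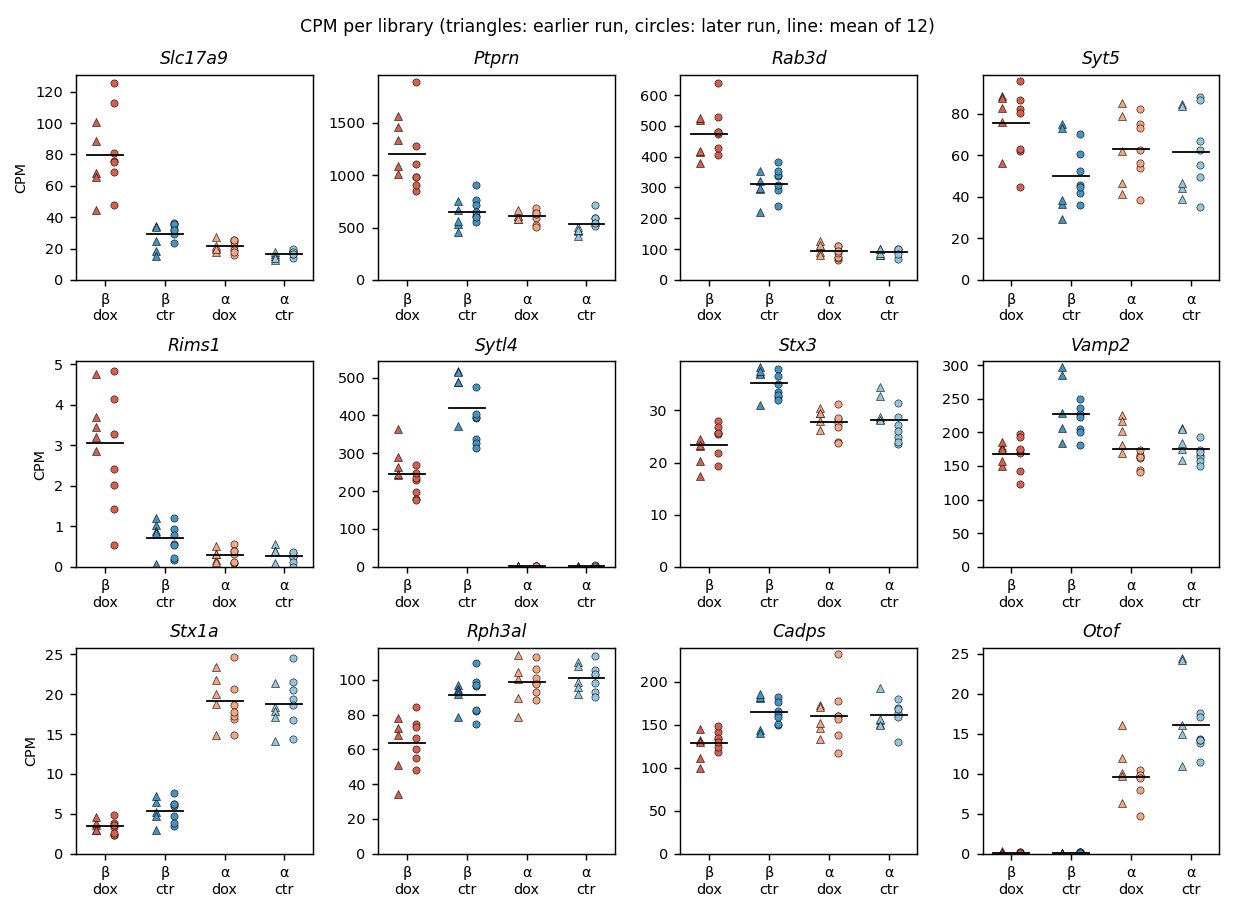
CPM of 12 members in each library of doxycycline β, control β, doxycycline α and control α cells, with triangles for the earlier run, circles for the later run and a line at the mean of 12. In β cells Slc17a9 and Stx3 separate completely between doxycycline and control, and Otof is lower in doxycycline than in control α cells with overlap.

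Of 6 tested calcium sensors and C2 proteins 2 rose and 1 fell, and of 5 priming factors 1 fell. Syt5, a calcium-binding synaptotagmin, had 44.6 to 95.4 CPM in doxycycline β cells (median 81.2) and 29.2 to 74.7 CPM in control β cells (median 45.0), and rose by 0.63 ± 0.12 (adjusted p = 0.000179), higher at 5 of 6 times. Syt11, which does not bind calcium, had medians of 40.0 CPM after doxycycline and 34.7 CPM in controls (0.24 ± 0.07, adjusted p = 0.00479). Doc2b had medians of 1.40 CPM after doxycycline and 2.49 CPM in controls (-0.70 ± 0.22, adjusted p = 0.0121). Cadps (CAPS1), which primes dense-core granules, had 99.8 to 149 CPM in doxycycline β cells and 141 to 186 CPM in control β cells (-0.34 ± 0.06, adjusted p = 0.000162), while its paralogue Cadps2 was 0.16 ± 0.09 (adjusted p = 0.135). Cplx2 had medians of 423 CPM after doxycycline and 509 CPM in controls (-0.29 ± 0.10, adjusted p = 0.0184). Syt4, Syt7, Syt13, Unc13a and Unc13b passed no threshold, with log2 fold changes of 0.04 (Syt7) to 0.22 (Unc13b).

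**Figure D4:**
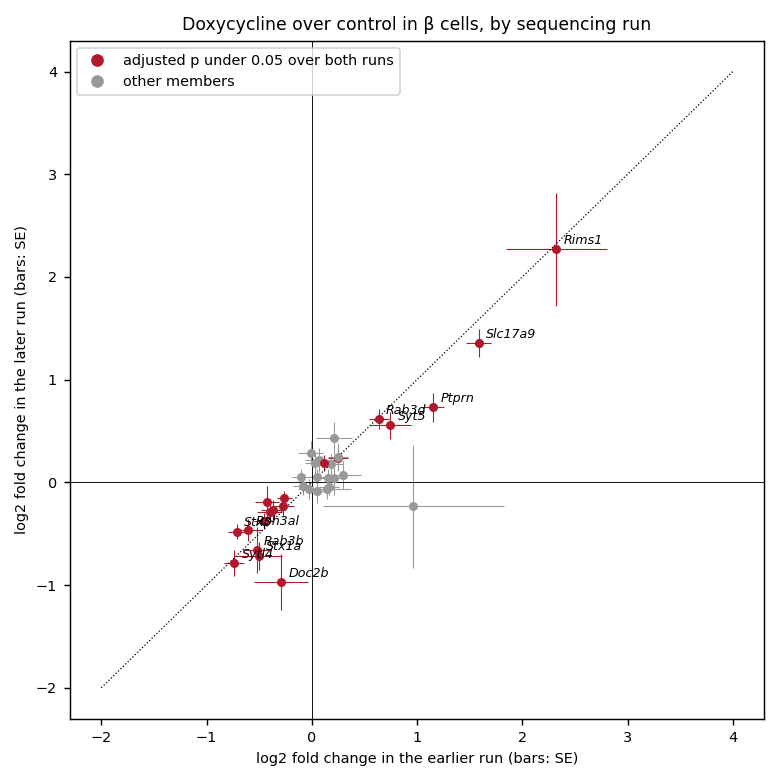
Log2 fold change of doxycycline over control in β cells in the earlier run (x axis) and the later run (y axis), each with its SE, for the members tested in both. Red marks the 19 members past the threshold over both runs, names are given beyond 0.6 in either run, and the dotted line marks equal values.

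Within the runs, all 19 of these members had the same direction in both, and 10 passed the threshold in each run alone. Of all genes, 32.4% passed in the earlier run alone and 24.5% in the later run alone. The changes of Slc17a9 were 1.58 (adjusted p = 5.5e-05) in the earlier and 1.36 (adjusted p = 0.00017) in the later run. Those of Stx3 were -0.71 (adjusted p = 0.0004) in the earlier and -0.48 (adjusted p = 0.0017) in the later run. Sytl4 changed by -0.74 (adjusted p = 0.00073) in the earlier and by -0.79 (adjusted p = 0.0017) in the later run. Doc2b was -0.29 (adjusted p = 0.41) in the earlier and -0.97 (adjusted p = 0.023) in the later run. Stx1a passed only in the later run, Rab27a, Stx4a, Rab3b and Cplx2 only in the earlier run, and Syt11, Rims2 and Vamp8 in neither run alone. The macrophage and dendritic markers moved with doxycycline in β cells (15 of 15 tested rose), as did 4 of 6 tested α markers and 5 of 6 δ, PP and ε markers. The α markers summed to 1731 to 3960 CPM in doxycycline β cells and 708 to 1321 CPM in control β cells, and their part in these results was not tested. With the macrophage markers as a covariate, 17 of 36 members passed (7 higher and 10 lower), against 25.4% of all genes. In that fit Slc17a9 (1.53), Ptprn (0.99), Stx3 (-0.54) and Sytl4 (-0.74) kept their calls, whereas Rab27a (-0.14, adjusted p = 0.169), Syt11 (0.18, adjusted p = 0.241), Doc2b (-0.49, adjusted p = 0.334) and Vamp8 (0.22, adjusted p = 0.126) did not. Without the libraries high in acinar markers, 18 members passed (6 higher and 12 lower), against 46.6% of all genes.

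In α cells, 2 of 37 tested members passed after doxycycline, where 0.127% of 14932 genes did (0.0804% higher and 0.0469% lower). No tested member had doxycycline and control ranges that did not overlap, and 0% of all genes did. Otof had 4.66 to 16.1 CPM in doxycycline α cells (median 9.70) and 10.9 to 24.4 CPM in control α cells (median 14.7). It fell by 0.78 on the log2 scale (SE 0.12, adjusted p = 0.00763) and was lower at all 6 times. Slc17a9 had 16.1 to 27.6 CPM in doxycycline α cells (median 21.0) and 13.0 to 19.7 CPM in control α cells (median 16.6), a rise of 0.37 ± 0.06 (adjusted p = 0.0178) at all 6 times. With the replicate number as a block, Slc17a9 was 0.37 with an adjusted p of 0.0858. Both changes had the same direction in each run, with Otof at -0.75 (adjusted p = 0.0023) in the earlier and -0.76 (adjusted p = 0.845) in the later run, and Slc17a9 at 0.49 (adjusted p = 0.02) in the earlier and 0.31 (adjusted p = 0.96) in the later run. The lowest Otof library was doxycycline replicate 2 of ZT4, one of those with high acinar markers. Without those libraries Otof was -0.77 (adjusted p = 0.0329) and Slc17a9 0.41 (adjusted p = 0.0329). With the macrophage markers as a covariate, Otof was -0.83 (adjusted p = 0.0465) and Slc17a9 0.35 (adjusted p = 0.135). Ptprn (0.19 ± 0.06, adjusted p = 0.31) and Sytl2 (0.38 ± 0.13, adjusted p = 0.38) had unadjusted p-values under 0.05 and were higher at all 6 times, but failed the adjustment.

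The difference of the doxycycline effect between the cell types was tested in 1 model of all 48 libraries. It passed for 14 of 38 members (5 more positive and 9 more negative in β cells), against 25.5% of 16207 genes (12.7% more positive and 12.8% more negative). With β and α libraries of the same number as a block, 16 passed, against 31.6% of all genes. Rims2 (-0.24, adjusted p = 0.0329) and Rab27a (-0.17, adjusted p = 0.0385) were called in addition. Slc17a9, which was higher after doxycycline in both cell types, rose more in β cells by 1.06 ± 0.13 (adjusted p = 1.27e-07). Stx3 differed by -0.58 ± 0.08 (adjusted p = 1.42e-06), with medians of 28.2 CPM in doxycycline α cells and 28.3 CPM in control α cells, and Vamp2 by -0.42 ± 0.07 (adjusted p = 8.75e-06). Stx3 of β over α cells was -0.24 ± 0.07 (adjusted p = 0.00522) in doxycycline mice and 0.30 ± 0.05 (adjusted p = 3.46e-05) in control mice. Syt5 of β over α cells was 0.29 ± 0.09 (adjusted p = 0.00521) in doxycycline mice and -0.31 ± 0.06 (adjusted p = 0.000114) in control mice, and its doxycycline effect differed by 0.57 ± 0.15 (adjusted p = 0.00404). Vamp2 was -0.05 ± 0.06 (adjusted p = 0.479) in doxycycline mice and 0.34 ± 0.05 (adjusted p = 2.8e-06) in control mice, and Rab3b was 0.12 ± 0.13 (adjusted p = 0.43) in doxycycline mice and 0.61 ± 0.11 (adjusted p = 4.18e-05) in control mice. Stx1a, already lower in β than in α cells of controls, stood further below them after doxycycline: β over α cells was -2.49 ± 0.09 in doxycycline mice and -1.84 ± 0.10 in control mice.

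Among 77 other genes of the pathway, 44 of 72 tested passed in doxycycline β cells (15 higher and 29 lower), against 46.9% of all genes (23.8% higher and 23.1% lower). None of 72 passed in α cells (7 had an unadjusted p under 0.05), where 0.127% of all genes did (7.86% at an unadjusted p under 0.05). Rab27b, named as the paralogue of Rab27a, rose by 2.51 ± 0.27 in β cells (adjusted p = 5.21e-07). Like the other genes of this list, it was not checked within each run or with the macrophage markers as a covariate. Rims3 fell by 1.21 on the log2 scale (SE 0.10, adjusted p = 2.59e-08). The granule glycoprotein Sv2a fell by 0.73 (SE 0.07, adjusted p = 6.59e-08), Syt14 by 0.53 (SE 0.05, adjusted p = 9.43e-08) and Baiap3, a Munc13-related protein, by 1.13 (SE 0.11, adjusted p = 1.72e-07). Between β and α cells of controls, 33 of 73 tested genes of that list were higher in β cells and 21 lower, against 34.2% of all genes higher and 37.3% lower.

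The doxycycline effect itself was not detectably different between times. By edgeR, 0 members passed in β cells, where 0% of all genes did, and 0 in α cells, where 0% did. Unadjusted p-values were under 0.05 for 2 members in β cells (Syt4 and Syt5; 2.59% of all genes) and for 0 in α cells (1.31% of all genes). DESeq2 called 1 member in β cells, against 0.0856% of all genes, and 0 in α cells, against 0.0335%.

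Daily rhythms were fitted in each condition as a 24 h cosine plus the run, with the amplitude taken from mean to peak in log2 units. In doxycycline β cells 7 of 35 tested members passed, against 11.6% of all genes, and in control β cells 1 of 34, against 2.17%. In doxycycline α cells 5 of 36 passed, against 2.82%, and in control α cells 2 of 36, against 4.49%. Unadjusted p-values were under 0.05 for 15 members in doxycycline β cells (31.8% of all genes), 13 in control β cells (20.6%), 11 in doxycycline α cells (19.9%) and 14 in control α cells (21.6%). Most of these calls rested on single libraries. Without replicate 1 of ZT20, 0 members passed in doxycycline β and 0 in doxycycline α cells, and without replicate 2 of ZT8 0 passed in doxycycline α cells. Leaving out single libraries gave 0 to 9 calls in doxycycline β, 0 to 5 in control β, 0 to 5 in doxycycline α and 1 to 6 in control α cells. Shares of all genes are not given for the fits without a single library. A loss among the members and a loss over all genes therefore cannot be told apart there.

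Syt5 was lowest in the late light phase or at its end in every condition. Its means of 2 libraries in doxycycline β cells were 88.9, 87.0, 63.6, 59.1, 69.5 and 84.2 CPM at ZT0, 4, 8, 12, 16 and 20 (amplitude 0.37 ± 0.08, peak 23.6 ± 0.8 h, adjusted p = 0.0366). In control β cells they were 43.6, 45.4, 32.6, 40.5, 72.4 and 66.8 CPM (amplitude 0.49 ± 0.10, peak 18.7 ± 0.8 h, adjusted p = 0.0564). The doxycycline β call was lost without any of 8 libraries (adjusted p-values 0.0542 to 0.0925, the highest without replicate 1 of ZT20) and with the replicate number as a block (0.0873). In doxycycline α cells the means were 74.0, 62.1, 42.6, 47.5, 67.6 and 83.6 CPM (amplitude 0.50 ± 0.07, peak 21.3 ± 0.5 h, adjusted p = 0.00877), and in control α cells 60.9, 54.4, 37.1, 46.7, 86.1 and 85.0 CPM (amplitude 0.57 ± 0.08, peak 19.5 ± 0.6 h, adjusted p = 0.00602). The call in doxycycline α cells was lost without replicate 1 of ZT20 or replicate 2 of ZT8 (adjusted p-values 0.0517 and 0.0531), and the call in control α cells held whichever library was left out. The lowest mean was at ZT12 in doxycycline β cells and at ZT8 in the other 3 conditions.

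**Figure D5:**
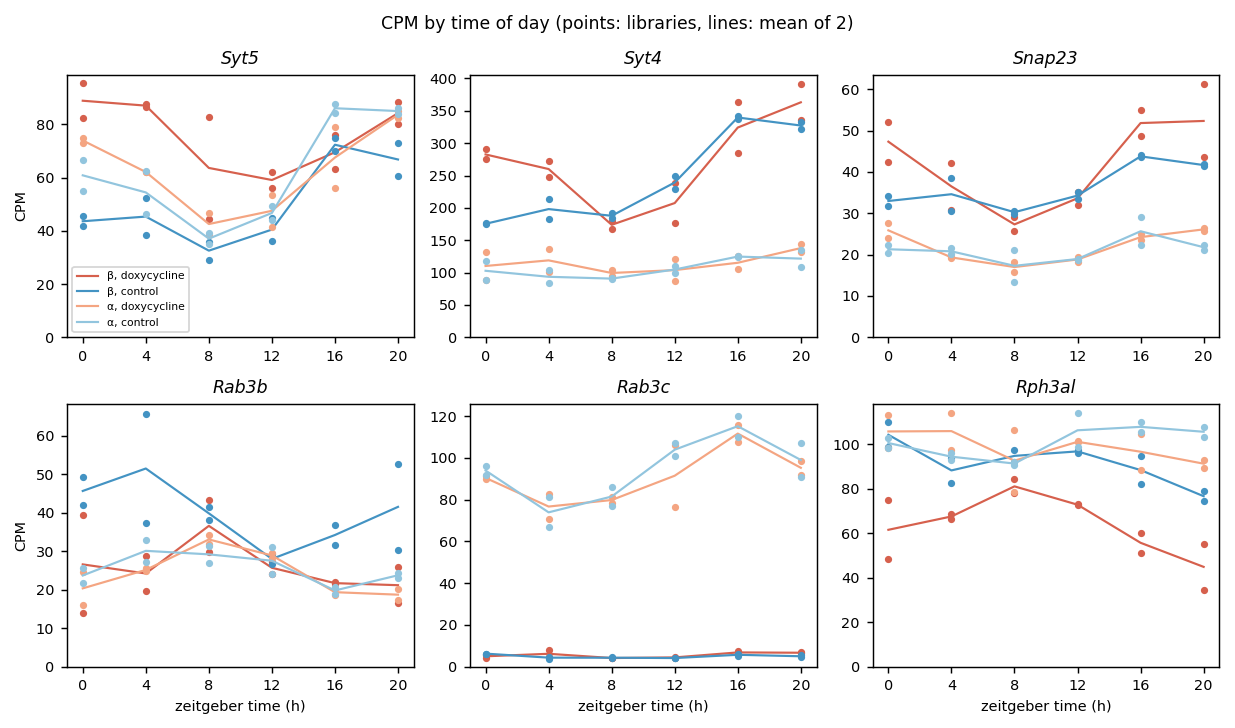
CPM of 6 members by zeitgeber time, with points for libraries and lines for the mean of 2, in doxycycline β, control β, doxycycline α and control α cells. Syt5 is lowest at ZT8 or ZT12 in each condition, and Rab3c in α cells is highest at ZT16.

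Syt4 and Snap23 were also highest in the dark phase in β cells. Syt4 means were 283, 260.1, 174, 208, 324 and 363 CPM in doxycycline β cells (amplitude 0.49 ± 0.08, peak 20.4 ± 0.6 h, adjusted p = 0.017) and 175, 198, 188, 239, 339.7 and 327 CPM in control β cells (amplitude 0.46 ± 0.08, peak 17.0 ± 0.7 h, adjusted p = 0.0308). The call in doxycycline β cells was lost without replicate 1 of ZT20 or of ZT8 (adjusted p-values 0.0780 and 0.0560), and that in control β cells without any of 7 libraries (0.0513 to 0.0888, the highest without replicate 1 of ZT16). Snap23 means were 47.3, 36.5, 27.3, 33.6, 51.8 and 52.3 CPM in doxycycline β cells (amplitude 0.49 ± 0.08, adjusted p = 0.0143), and 33.0, 34.6, 30.3, 34.3, 43.8 and 41.6 CPM in control β cells (amplitude 0.23 ± 0.06, adjusted p = 0.104). Without doxycycline β replicate 1 of ZT20, its adjusted p was 0.0670. In doxycycline α cells Snap23 peaked at 20.4 ± 0.7 h (amplitude 0.35 ± 0.06, adjusted p = 0.0221), and the call was lost without any of 4 libraries (0.0511 to 0.107, the highest without replicate 2 of ZT8).

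Other members were highest in the light phase or in 1 cell type. Rph3al had means of 61.5, 67.5, 81.0, 72.8, 55.6 and 44.8 CPM in doxycycline β cells (peak 8.2 ± 0.8 h, amplitude 0.39 ± 0.08, adjusted p = 0.032) and 104, 88.2, 94.7, 96.7, 88.3 and 76.6 CPM in control β cells (adjusted p = 0.72). Cplx2 peaked at 9.6 ± 0.8 h in doxycycline β cells (amplitude 0.47 ± 0.10, adjusted p = 0.0357) and Rab3d at 4.2 ± 0.9 h (amplitude 0.23 ± 0.06, adjusted p = 0.0433), while Myrip, which links RAB27A to myosin, peaked at 20.4 ± 0.7 h (amplitude 0.50 ± 0.10, adjusted p = 0.0237). These calls were lost without any of 7 (Rph3al), 8 (Cplx2), 10 (Rab3d) or 2 (Myrip, replicate 1 of ZT8 and of ZT20) libraries, with adjusted p-values of 0.0508 to 0.130, each highest without replicate 1 of ZT20. With the replicate number as a block, the adjusted p in doxycycline β cells was 0.0743 for Rph3al, 0.189 for Cplx2 and 0.0599 for Rab3d. Rab3c had means of 90.5, 76.7, 79.8, 91.5, 112 and 95.3 CPM in doxycycline α cells (peak 16.8 ± 0.8 h, adjusted p = 0.0496) and 94.0, 73.9, 81.5, 104, 115 and 99.0 CPM in control α cells (peak 16.7 ± 0.8 h, adjusted p = 0.0406). Rab3b peaked at 8.4 ± 0.7 h in doxycycline α cells (amplitude 0.41 ± 0.08, adjusted p = 0.0271) and Sytl5 at 20.6 ± 0.7 h (amplitude 0.44 ± 0.08, adjusted p = 0.0283). The Rab3c calls were lost without any of 9 libraries in doxycycline α cells and any of 10 in control α cells, the Rab3b call without any of 6 and the Sytl5 call without any of 3 (adjusted p-values 0.0522 to 0.155). The highest were those without replicate 1 of ZT16 for Rab3c in both conditions, and without replicate 1 of ZT20 for Rab3b and Sytl5. With the replicate number as a block, Rab3c in doxycycline α cells had an adjusted p of 0.0691. Without the libraries high in acinar markers, 0 members passed in doxycycline α cells, against 0.163% of all genes.

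No member's rhythm differed between doxycycline and control cells after adjustment by edgeR or by DESeq2, in β cells (0% of all genes by edgeR) or in α cells (0%). Unadjusted p-values were under 0.05 for 4 members in β cells (Syt5, Syt4, Snap23 and Rims1; 4.66% of all genes) and for 0 in α cells (2.52%). A call in 1 condition and not in another was therefore not shown to be a difference. Within the earlier run alone 0 members passed in doxycycline β cells (1.09% of all genes) and 2 in control β cells (2.65%). In α cells 0 passed there after doxycycline (0.479%) and 1 in controls (0.2%). In the later run alone 0 passed in each condition, where 0% of all genes did, and 0.00727% in control α cells.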

How the data were processed

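RNA of sorted α and β cells was sequenced in 48 libraries, 12 per condition, from 300 ng RNA with an unstranded polyA kit, per the labels' protocols. The authors deposited estimated counts per gene (expected counts) and RPKM values. Per the submitters' processing notes, bcl2fastq, STAR and GRCm38 were used. The counting program and software versions are not given in the sources used here. The deposited RPKM values equal the counts scaled to the listed length and the library total. Of the nonzero deposited counts 49.4 to 73.1% were whole (tolerance 1e-06), and 99.7 to 100% of whole values up to 20 were even. Counts were rounded, and RPKM was used only for levels within a condition. Intervals were not computed, and errors come from the spread between libraries.

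edgeR 4.0.16 (R 4.3.3) fitted quasi-likelihood F tests over all genes after a filter on low counts (minimum count 10, minimum total 15), with TMM scaling, time (6 levels) and run as terms, prior count 2 and Benjamini-Hochberg adjustment over all genes tested at a threshold of 0.05. The rhythm fits used a 24 h cosine and sine with the run. All adjusted p-values are from these edgeR fits. Fits were tested on simulated data. Alternatives were other scaling, no filter, DESeq2 1.42.0, a replicate block, no run term, each run alone, a macrophage marker covariate, free time levels and each library left out. Leaving out the libraries with acinar markers over 1000 CPM, rhythm in the earlier run alone, and a block of β with α libraries in the 48-library model, were chosen after seeing the data. Members are described where doxycycline, its difference between cell types or a rhythm passed the threshold, or where they were among the 8 largest differences in each direction between control β and α cells. Paralogues were named for contrast. The members and lists were chosen with earlier results of these data known. The labels give no shared animal for a replicate number. Same-numbered β and α libraries deviated together. Their correlation over genes was 0.18 to 0.48 in doxycycline mice, over 0.1 at 6 of 6 times. In control mice it was 0.04 to 0.40, over 0.1 at 5 of 6. The main fits did not pair them. Blocks on the replicate number were alternative fits only, and the block in the 48-library model covered control mice too. Between doxycycline and control libraries the range was -0.48 to 0.31, and the main fits did not pair these either. Outside ZT0 the number is also the run, so a shared run and a shared number cannot be told apart there; at ZT0 β with α gave 0.42 in doxycycline and 0.27 in control mice. Further marker lists were tested in β cells for doxycycline over control: 2 of 5 duct markers were higher and 1 lower, 1 of 5 endothelial, 4 of 7 stellate and 2 of 11 acinar markers were higher, 2 of 4 neural markers were lower, and 2 of 10 β markers were higher and 5 lower.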

Additional observations from a re-analysis of the deposited data

Results flagged for a closer look

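The doxycycline effect on 14 members differed between β and α cells by a test of that difference (edgeR, treatment by cell type over 48 libraries; log2 effect in β cells minus that in α cells ± SE). It was more positive in β cells for Rims1 at 2.19 ± 0.58 (adjusted p = 0.00473), Slc17a9 at 1.06 ± 0.13 (adjusted p = 1.27e-07), Ptprn at 0.69 ± 0.12 (adjusted p = 6.37e-05), Syt5 at 0.57 ± 0.15 (adjusted p = 0.00404) and Rab3d at 0.56 ± 0.12 (adjusted p = 0.000563). Rims1 had a median of only 6 counts per library in doxycycline α cells and 10 in control α cells. The effect was more negative in β cells for Doc2b at -1.04 ± 0.30 (adjusted p = 0.00931), Stx1a at -0.69 ± 0.13 (adjusted p = 0.000218) and Stx3 at -0.58 ± 0.08 (adjusted p = 1.42e-06). So it was for Rph3al at -0.51 ± 0.10 (adjusted p = 0.000342), Vamp2 at -0.42 ± 0.07 (adjusted p = 8.75e-06) and Cadps at -0.33 ± 0.09 (adjusted p = 0.00740). Rims1, Syt5, Doc2b and Cadps lost their calls in each run alone (adjusted p-values 0.0683 to 0.145). Doc2b also lost its call without the run term (0.0577), and Stx1a in the earlier run alone (0.0606).

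The same test called Sytl4 at -0.88 ± 0.32 (adjusted p = 0.0412), Rab3b at -0.52 ± 0.17 (adjusted p = 0.0244) and Stx4a at -0.30 ± 0.11 (adjusted p = 0.0380), and these 3 calls rested on single libraries. Sytl4 lost its call without any of 22 libraries (values -0.87 to -0.69), with the highest adjusted p, 0.105, without doxycycline α replicate 1 of ZT0. Stx4a lost its call without any of 17, with the highest adjusted p, 0.0925, without doxycycline α replicate 2 of ZT8. Rab3b was -0.45 (adjusted p = 0.0507) without control β replicate 2 of ZT4. In each run alone Rab3b (adjusted p-values 0.115 and 0.215) and Stx4a (0.214 and 0.255) also lost their calls. So did Stx4a with other scaling (0.0649), with DESeq2 and without the libraries high in acinar markers (0.0906). Sytl4 lost its call in the later run alone (0.189), without the run term (0.0547) and without the libraries high in acinar markers (0.191).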

How the results depend on the processing

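No result reversed. For members called in the main fits, leaving out 1 library at a time kept the call in 2718 of 2868 comparisons. The other alternatives kept it in 791 of 903. Rhythm calls held less often. Without 1 library they were kept 46 and lost 38 times in doxycycline β, and 5 and 7 times in control β cells. In α cells they were kept 36 and lost 24 times after doxycycline, and 14 and 10 times in controls. Under the other alternatives they were kept 30 and lost 26 times in doxycycline β, and 6 and 1 in control β cells. In α cells these counts were 20 and 20 after doxycycline, and 10 and 4 in controls. Calls gained by other members and the rhythm fits with free time levels are not in these totals. Counts with free time levels are given below. With single libraries left out, member calls numbered 28 to 31 (β over α cells, doxycycline mice), 32 to 33 (control mice) and 18 to 22 (doxycycline in β cells). They numbered 2 for doxycycline in α cells and 11 to 15 for the difference between cell types. Rhythm calls were 0 to 9 in doxycycline β, 0 to 5 in control β, 0 to 5 in doxycycline α and 1 to 6 in control α cells. Shares of all genes are not given for these fits. In the later run alone, doxycycline called 12 members in β cells (24.5% of all genes) and 0 in α cells (0%). The difference between cell types called 7 there (7.58%). Rhythm called 0 in each condition there (0% of all genes, and 0.00727% in control α cells). In the earlier run alone, rhythm called 0 in doxycycline β (1.09% of all genes) and 2 in control β cells (2.65%). It called 0 in doxycycline α (0.479%) and 1 in control α cells (0.2%). DESeq2 called 11 rhythmic members in doxycycline β cells (22.1% of all genes), 8 in control β cells (9.90%) and 7 in control α cells (11.4%). It called 1 member whose doxycycline effect in β cells differed between times (0.0856%). Without a filter, 2 rhythmic members were called in control β cells (1.13%). The effect differed between times for 1 member in α cells (0.307%). Without the run term, rhythm calls were 2 in doxycycline β (2.41% of all genes), 3 in doxycycline α (1.25%) and 1 in control α cells (2.58%). With free time levels they were 0 in doxycycline β (0%), 0 in doxycycline α (0.105%) and 1 in control α cells (0.547%). The macrophage covariate left 1 call for doxycycline in α cells, 0 of them higher (0.0067% of all genes). Without the libraries high in acinar markers, 0 rhythms passed in doxycycline α cells (0.163%). Blocking on the replicate number within doxycycline mice added Unc13a and Vamp8 to the β over α calls (73.7% of all genes passed there). Pairing β with α in the 48-library model gave 16 calls, adding Rims2 and Rab27a (31.6% of all genes passed there). Neither block changed another call. Numbers were not shown to pair doxycycline with control libraries. With the replicate block there, doxycycline called 21 members in β cells (45.2% of all genes) and 1 in α cells (0.0469%). The α call was not a rise, and Slc17a9 was 0.37 (adjusted p = 0.0858). Rhythm called 3 in doxycycline β (5.05%) and 2 in control β cells (2.69%) with that block. The causes of these shifts were not tested. Cplx1, Rims1, Doc2b, and Otof and Sytl2 in β cells had low counts.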
